A study of Mus musculus with 6 samples.

Results

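The interferon-inducible p200 family, also called HIN-200, is a cluster of mouse genes on chromosome 1, and 8 of them are described here: Ifi203, Ifi204, Ifi206, Ifi208, Ifi209, Ifi213, Ifi214 and Mndal. They were chosen by name, and all 8 have a line among the 55401 genes of the deposited count tables. The RNA came from spleen CD4+ T cells that were isolated as naive cells and activated with CD3/CD28 beads for 24 h. There were 3 libraries from control mice, labelled WT, and 3 from mice with a Satb1 conditional knockout (Satb1 flox/flox CD4-Cre, here Satb1 cKO). SATB1 is a nuclear protein that organises chromatin in T cells, and CD4-Cre deletes floxed genes from the double-positive stage of thymic development onward, so that the deletion precedes the activation and reaches CD8 lineage cells as well. The labels do not say whether the controls carried the Cre or the floxed allele, what the strain, age or sex was, or whether each library came from 1 mouse, so p-values measure the spread between these libraries.

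Proteins of the family share a HIN domain that binds DNA, and most carry an N-terminal pyrin domain through which they assemble with other proteins. Interferons raise the transcription of many members, and the best known relative, AIM2, starts an inflammasome on cytosolic DNA. In lymphocytes and myeloid cells the family has been studied for effects on growth, differentiation, DNA sensing and the control of transcription. The cluster is also known to differ between inbred mouse strains in gene content, sequence and expression. Since the strain is not stated, a difference of genetic background between the 2 groups cannot be told apart from the knockout at this locus. Satb1 itself lies on chromosome 17.

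The 8 genes span chr1:173468485-173942672 (GRCm38, GENCODE M21), which is 474188 bases. In genome order they are Ifi206 (chr1:173468485-173491041, minus strand), Ifi214 (chr1:173519717-173535957, minus), Ifi213 (chr1:173566283-173599274, minus), Ifi209 (chr1:173630917-173647928, plus), Ifi208 (chr1:173673675-173698395, plus), Ifi204 (chr1:173747293-173766943, minus), Mndal (chr1:173849126-173942491, minus) and Ifi203 (chr1:173920407-173942672, minus). All are annotated as protein coding. The annotated spans of Mndal and Ifi203 overlap on the same strand, but their exons share only 37 bases, which is 1.02% of Mndal and 0.552% of Ifi203.

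RefSeq promoter windows, which run from 250 bases before to 50 after a transcription start (GRCm38.p6), were found for 7 of the 8 genes, with 2 windows each for Mndal and Ifi203. They are shown because the promoters fall into 3 groups of near copies and because 6 of the 7 genes hold the core of an interferon-stimulated response element, searched as GAAANNGAAA on both strands. Of all 32851 windows in the table, 1131 (3.44%) hold that motif. The lines below give 100 bases around it, 5′ to 3′ on the gene's strand, with the 10 bases of the match in capitals; for Ifi209 the capitals mark the 10 bases that align to the match of Ifi214.
Ifi206, chr1:173491319-173491418, minus strand: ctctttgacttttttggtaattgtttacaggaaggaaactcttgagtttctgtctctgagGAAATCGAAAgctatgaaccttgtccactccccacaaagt
Ifi208, chr1:173673547-173673646, plus strand: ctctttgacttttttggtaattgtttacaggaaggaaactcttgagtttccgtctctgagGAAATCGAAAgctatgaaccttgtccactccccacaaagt
Ifi213, chr1:173599306-173599405, minus strand: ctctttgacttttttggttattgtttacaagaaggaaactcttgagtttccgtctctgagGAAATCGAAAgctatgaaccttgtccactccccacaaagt
Ifi214, chr1:173535997-173536096, minus strand: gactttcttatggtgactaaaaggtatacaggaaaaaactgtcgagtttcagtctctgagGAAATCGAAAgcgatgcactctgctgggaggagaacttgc
Ifi209, chr1:173630720-173630819, plus strand: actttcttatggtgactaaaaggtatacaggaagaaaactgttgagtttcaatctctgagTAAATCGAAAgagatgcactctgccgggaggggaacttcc
Mndal, first window, chr1:173880184-173880283, minus strand: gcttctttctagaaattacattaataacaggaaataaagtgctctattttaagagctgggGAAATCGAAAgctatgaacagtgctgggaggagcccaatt
Ifi203, second window, chr1:173942488-173942587, minus strand: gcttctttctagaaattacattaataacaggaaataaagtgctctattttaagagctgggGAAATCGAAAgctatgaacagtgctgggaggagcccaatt

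The first group of promoters is Ifi206, Ifi208 and Ifi213, whose windows were 98.9% to 99.3% identical. The second is Ifi209 and Ifi214, at 96.0% over 299 aligned bases. The third is the first window of Mndal and the second of Ifi203, at 97.6% over 289 bases, and their 100 bases printed above do not differ. The match begins 40 bases upstream of the start in Ifi206, 58 in Ifi208, 73 in Ifi213, 79 in Ifi214, 36 in Mndal and 35 in Ifi203. The second window of Mndal holds another match, TTTCTCTTTC, which begins 54 bases upstream of that start, and the first window of Ifi203 holds none; neither window is a near copy of another gene's window over its whole length. Ifi209 differs from Ifi214 by 12 substitutions, of which G172T (counted from 1 at the 5′ end of the Ifi214 window, with the Ifi214 base first) lies within the element and leaves no match. A gamma-activated sequence, searched as TTCNNNGAA on both strands, was in 8.3% of all windows and in no window of these 7 genes. These matches describe letters in the windows, not bound sites.

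Some of the transcripts fall into similar pairs. In GENCODE M21, the longest coding transcripts of Ifi209 and Ifi214 were 97.3% identical over 2824 bases, and those of Ifi208 and Ifi213 were 96.6% identical over 2741 bases. Ifi206 was 92.9% identical to both Ifi208 and Ifi213 over 1359 bases. Mndal and Ifi203, near copies in 1 promoter window each, were 94.5% identical over 642 bases of transcript. Longer alignments joined each of them to Ifi204, at 96.0% over 774 bases for Mndal and 90.1% over 913 bases for Ifi203. Ifi204 was closest to Ifi211, a member outside the 8, at 97.1% over 1361 bases. Of all stretches of 100 bases in the Ifi209 transcripts, 16.9% also stood in Ifi214, while 7.29% of those in Ifi214 stood in Ifi209. The corresponding share with any other gene was 13.1% for Ifi206, 10.7% for Ifi204, 6.38% for Mndal, 5.92% for Ifi208, 3.3% for Ifi213 and 2.84% for Ifi203. Reads from such stretches align to more than 1 place, and the deposited files count 2.92% to 3.16% of each library as not uniquely aligned and outside any gene's count. The counts of these genes are therefore uncertain in the shared parts, more so for Ifi209, Ifi206 and Ifi204.

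Depth was 14895389 to 20266626 reads assigned to genes per library. Satb1, the targeted gene, had 712, 851 and 727 CPM (counts scaled to the library's total of reads on genes) in the controls and 426, 546 and 462 in the Satb1 cKO libraries. It was 62.6% of control (log2 fold change -0.68, SE 0.0866, adjusted p = 9.7e-05, edgeR), and counts over the whole gene do not show whether the remaining reads hold the deleted part. Here and below, a gene was called at a Benjamini-Hochberg adjusted p under 0.05 in edgeR's quasi-likelihood test over 13364 genes, and a log2 fold change is Satb1 cKO against control. Of the genes tested, 21.6% were called higher and 20.7% lower, or 42.3% in either direction. T cell markers were present in every library, with a summed level of 3860 to 3970 CPM in the controls and 2840 to 2960 in the Satb1 cKO.

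Control replicate 1 stood apart from the other controls in interferon-inducible genes. Each of the 7 tested p200 genes of the 8 was lowest there among the controls, at a median of 0.73 times the mean of control replicates 2 and 3, with a range from 0.656 for Ifi206 to 0.825 for Mndal. Over all tested genes the median of this ratio was 0.998, 36.3% of genes were lowest in control replicate 1, and 5% had a ratio below 0.662. Other interferon-inducible genes were low in it too: the ratio had a median of 0.595 over 35 type I interferon-stimulated genes and of 0.492 over 21 interferon gamma-inducible genes. The p200 results and the counts of the lists that change with it are therefore given both ways.

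Among the 8 genes, 5 fell in the Satb1 cKO cells (Ifi206, Ifi208, Ifi209, Ifi213 and Ifi214), none of the 7 tested rose, and Ifi203 and Mndal did not pass the test. Over all genes, 20.7% were called lower and 21.6% higher. No gene of the 7 was higher at an unadjusted p under 0.05 with edgeR either, and DESeq2 and limma-voom called 0 higher. For the 5 that fell, every Satb1 cKO value was below every control value. They were called from these same libraries, so this separation is no further result, and it was not counted over all genes. Over the 7 tested, log2 fold changes had a median of -0.70, against 0.0034 over all genes tested. With control replicate 1 left out, 6 were called lower and the median was -0.84. With any other library left out, 5 were called lower. The median was then -0.585 without control replicate 2 and -0.608 without control replicate 3. It was -0.709, -0.725 and -0.561 without Satb1 cKO replicates 1, 2 and 3. In bulk RNA, fewer cells that express a gene and less RNA per cell cannot be told apart.

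Ifi214 had the largest change among the 7 tested genes. It encodes a less well characterised pyrin and HIN protein of the family. It had 8.22, 9.94 and 11.0 CPM in the controls and 1.42, 2.17 and 1.99 in the Satb1 cKO. The lowest control was 3.78 times the highest Satb1 cKO library. Its level was 19.2% of control, a 5.22-fold fall (log2 fold change -2.38, SE 0.193, adjusted p = 3.1e-06, edgeR), and only 0.397% of all tested genes had a lower log2 fold change. The value was -2.51 when control replicate 1 was left out and -2.21 without Satb1 cKO replicate 1.

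Ifi209 is the near copy of Ifi214. Its level was 46.1, 62.2 and 60.6 CPM in the controls and 36.0, 36.2 and 31.0 in the Satb1 cKO. The groups did not overlap, with the lowest control at 1.27 times the highest Satb1 cKO library. It fell to 61.5% of control (log2 fold change -0.70, SE 0.107, adjusted p = 0.000332, edgeR), and without control replicate 1 the value was -0.84. Without control replicate 2 the value was -0.633. Within a library, the log2 ratio of Ifi214 to Ifi209 counts was -2.49, -2.65 and -2.46 in the controls and -4.67, -4.06 and -3.96 in the Satb1 cKO. This pair of similar genes thus moved unequally, by 1.70 on the log2 scale or 3.24-fold. The exact two-sided permutation test gave p = 0.1, the smallest that 3 against 3 libraries allow, and 0.14 after adjustment over the 21 gene pairs compared.

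Ifi213, Ifi208 and Ifi206, which share the first promoter group, fell by similar amounts. Ifi213 had 29.7, 41.8 and 42.8 CPM in the controls and 23.8, 24.1 and 22.2 in the Satb1 cKO. It was 61.7% of control (log2 fold change -0.70, SE 0.121, adjusted p = 0.000813, edgeR). The 3 Satb1 cKO libraries lay within a narrow range, and control replicate 1 was the control nearest to them. Ifi208 had 21.3, 32.5 and 32.1 CPM in the controls and 19.5, 19.1 and 18.3 in the Satb1 cKO, with the lowest control only 1.09 times the highest Satb1 cKO library. It was 66.8% of control (log2 fold change -0.58, SE 0.139, adjusted p = 0.00588, edgeR).

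Ifi206 had 20.4, 32.5 and 29.7 CPM in the controls and 18.2, 19.1 and 12.6 in the Satb1 cKO. Control replicate 1 was only 1.07 times the highest Satb1 cKO library, and the spread was the largest of the 5, at a coefficient of variation of 23.0% in the controls and 21.3% in the Satb1 cKO for Ifi206. It was 61.0% of control (log2 fold change -0.71, SE 0.178, adjusted p = 0.00759, edgeR). Leaving out control replicate 1 gave -0.87 for Ifi213, -0.78 for Ifi208 and -0.91 for Ifi206. Leaving out another library could also give smaller falls. These were -0.608 for Ifi213 without control replicate 3, -0.489 for Ifi208 without control replicate 2 and -0.554 for Ifi206 without Satb1 cKO replicate 3.

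Ifi203 and Mndal, the 2 genes at the distal end of the cluster that share the third promoter group, had overlapping levels. Ifi203 encodes p203. It had 54.2, 76.7 and 71.8 CPM in the controls and 71.3, 73.2 and 67.9 in the Satb1 cKO (log2 fold change 0.075, SE 0.102, adjusted p = 0.587, edgeR). The Satb1 cKO libraries lay inside the range of the controls, and without control replicate 1 the sign turned, to -0.078 (adjusted p = 0.287, edgeR). Mndal encodes a nuclear protein that has been linked to restraint of cell growth. It had 61.1, 68.3 and 79.8 CPM in the controls and 65.5, 62.5 and 60.5 in the Satb1 cKO (log2 fold change -0.15, SE 0.083, adjusted p = 0.183, edgeR). It passed the test when control replicate 1 was left out, at -0.25 (adjusted p = 0.00932, edgeR). Without control replicate 3 it was -0.043 (adjusted p = 0.663, edgeR).

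Ifi204 encodes p204, a DNA sensor studied mainly in macrophages. It had too few reads to be tested: 1, 2 and 0 reads in the controls and 9, 3 and 13 in the Satb1 cKO. The ratio of the summed reads, 25 against 3, allowing for depth, was 7.92 with an exact 95% interval of 2.42 to 41.0 that covers counting error only. In the Satb1 cKO libraries Ifi204 was 0.473, 0.172 and 0.785 CPM, where 20 myeloid markers summed to 192, 106 and 244 CPM. Single markers of that list differed in their order over these libraries, as with Lyz2 at 62.3, 41.1 and 93.0 CPM and Csf1r at 7.41, 2.35 and 7.12 CPM. The part of myeloid cells in the Ifi204 reads was not tested. Fitted with no filter on low counts, Ifi204 was called higher (log2 fold change 2.84, adjusted p = 0.00594, edgeR). That fit gave far smaller adjusted p-values for other genes too, as with Satb1 at 8.49e-60 against 9.7e-05 with the filter (edgeR). Its calls are therefore not comparable with the others. DESeq2 called 0 of the 8 genes higher. A gene without an adjusted p from DESeq2 counts as not called there, so this 0 is no separate result for Ifi204.

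**Figure D1:**
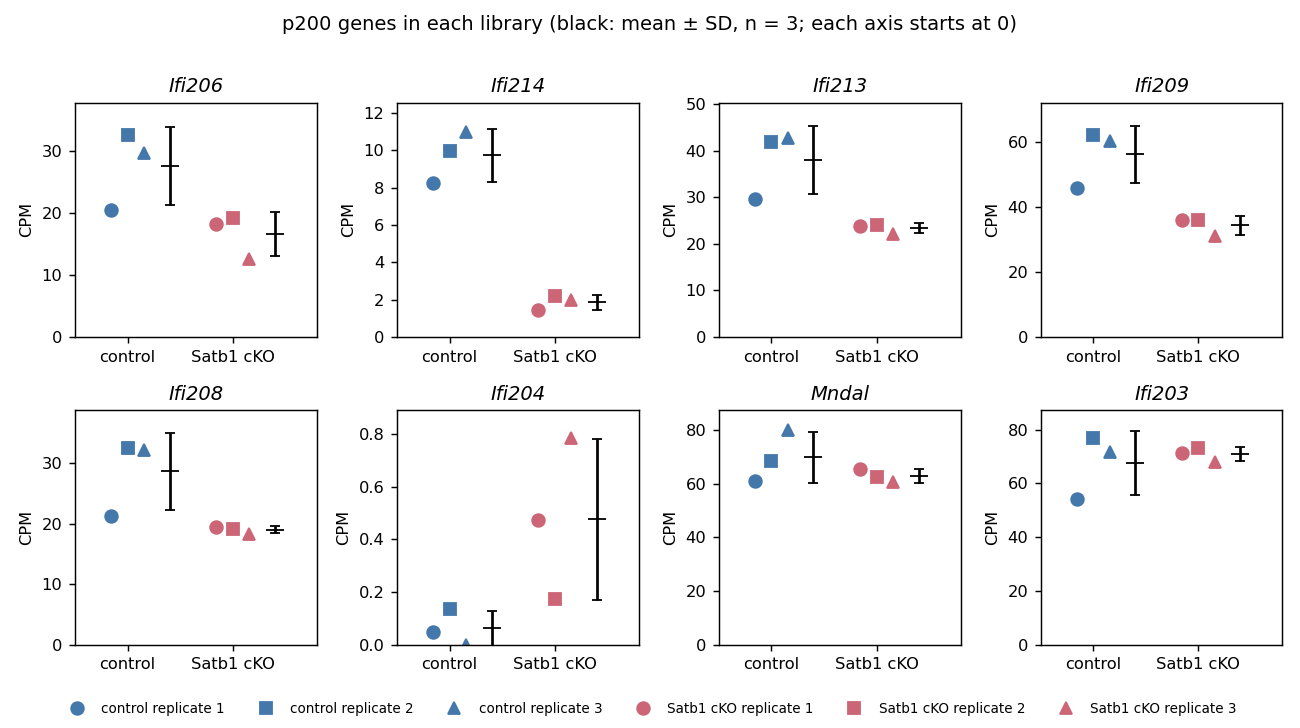
Level of each of the 8 p200 genes in CPM (vertical axes from 0) in the 3 control and 3 Satb1 cKO libraries; points are libraries and black marks the mean ± SD (n = 3). Ifi214 shows the widest gap as a ratio among the tested genes, 8.22 to 11.0 CPM against 1.42 to 2.17, and Ifi203 and Mndal overlap between the groups.

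Per exon length, as RPKM (CPM divided by the merged exon length in kilobases), the order of mean levels in the controls was Mndal (19.2), Ifi209 (15.9), Ifi203 (10.1), Ifi206 (9.01), Ifi213 (5.57), Ifi208 (5.45), Ifi214 (1.20) and Ifi204 (0.0172). Neighbours in that order whose libraries overlapped were Mndal with Ifi209, Ifi203 with Ifi206, and Ifi213 with Ifi208. In the Satb1 cKO the order was Mndal (17.3), Ifi203 (10.6), Ifi209 (9.70), Ifi206 (5.44), Ifi208 (3.61), Ifi213 (3.41), Ifi214 (0.230) and Ifi204 (0.134). Ifi203 with Ifi209, Ifi208 with Ifi213, and Ifi214 with Ifi204 overlapped there. By this measure Ifi209 was thus above Ifi203 in every control library and their libraries overlapped in the Satb1 cKO. In CPM, Ifi203 was above Ifi209 in every library. The merged exons of Ifi203 span 6706 bases but its longest coding transcript has 3754, against 3547 and 3439 for Ifi209. The order of these genes therefore depends on the length used.

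The summed level of the 8 genes was 241, 324 and 328 CPM in the controls and 236, 237 and 215 in the Satb1 cKO. Control replicate 1 was close to the Satb1 cKO libraries in this sum. Shares of the sum differed between the groups, with a wide gap for some genes and a narrow one for others. The shares are parts of the same sum, so they do not vary independently. A fall of the genes called lower raises the shares of the others by itself. The shares are thus no result beyond the calls, and such differences were not counted for other sets of genes. Ifi203 made up 22.5%, 23.7% and 21.9% of the sum in the controls and 30.2%, 31.0% and 31.5% in the Satb1 cKO. Ifi214 made up 3.41%, 3.07% and 3.36% and then 0.600%, 0.919% and 0.925%. Ifi209 made up 19.1%, 19.2% and 18.5% and then 15.2%, 15.3% and 14.4%. Ifi213 went from a range of 12.3% to 13.1% to one of 10.1% to 10.3%. For these 4 genes control replicate 1 lay with the other controls. The remaining shares were closer together: Ifi208 made up 9.54% ± 0.618 (SD, n = 3) in the controls, with 8.84% in control replicate 1, and 8.28% ± 0.230 in the Satb1 cKO. Ifi206 made up 9.17% ± 0.781 (SD, n = 3), with 8.45% in control replicate 1, and then 7.20% ± 1.20. Mndal made up 25.4%, 21.1% and 24.3% in the controls and 27.7%, 26.4% and 28.1% in the Satb1 cKO. For these 3 genes control replicate 1 was the control nearest to the Satb1 cKO libraries.

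**Figure D2:**
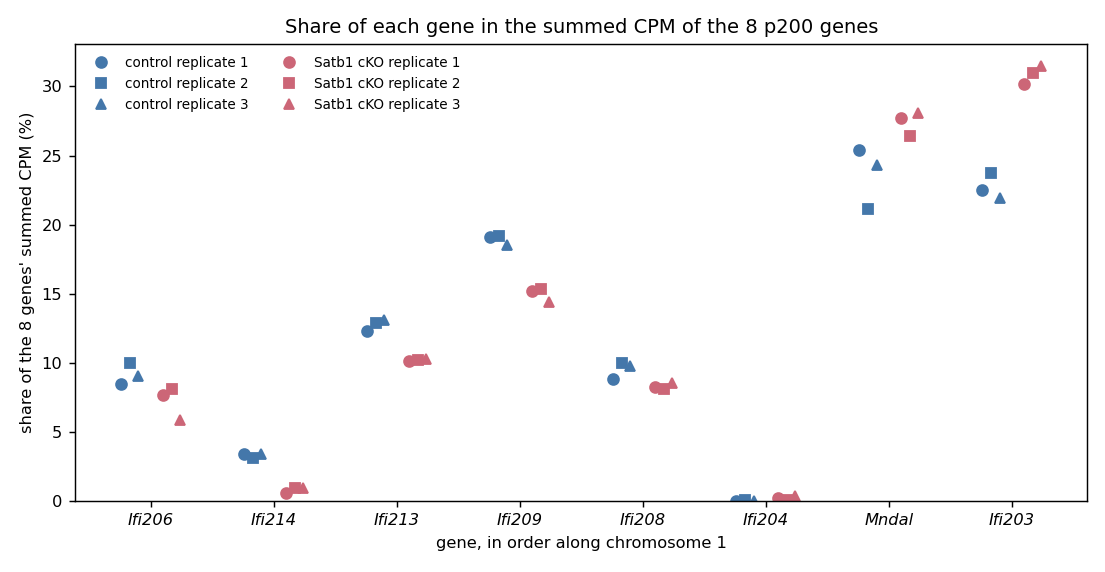
Share of each gene in the summed CPM of the 8 p200 genes, in percent, for each library. The Ifi203 share is 21.9% to 23.7% in the controls and 30.2% to 31.5% in the Satb1 cKO, and control replicate 1 lies with the other controls for Ifi203, Ifi209, Ifi213 and Ifi214 and nearest to the Satb1 cKO for Ifi206, Ifi208 and Mndal.

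Ratios within a library set the genes against each other without a library-wide scale. The log2 ratio of Ifi209 to Ifi203 was -0.23, -0.30 and -0.24 in the controls and -0.99, -1.02 and -1.13 in the Satb1 cKO, a difference of -0.78 with no overlap (exact permutation p = 0.1, adjusted 0.14). Ifi209 was called lower from these same libraries and Ifi203 was not, so this separation is no further result. Every pair of a called and an uncalled gene had the same permutation p. The ratio of Ifi213 to Ifi209, in contrast, differed by only 0.013 between the groups, with an SD of 0.0649 in the controls and 0.0616 in the Satb1 cKO (exact permutation p = 0.8). Mndal to Ifi203 differed by -0.23, with overlapping libraries (exact permutation p = 0.3).

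Other p200 genes of the cluster did not all follow. Aim2, the cytosolic DNA receptor, rose: it had 20.7, 20.3 and 19.0 CPM in the controls and 27.7, 29.7 and 27.9 in the Satb1 cKO (log2 fold change 0.51, SE 0.0709, adjusted p = 0.000178, edgeR). Its control replicate 1 was not low, at 1.05 times the other controls, and without that library the value was 0.53. Its RefSeq window holds no match to the response element. Ifi211 had 2.51, 3.02 and 2.46 CPM in the controls and 1.89, 0.744 and 1.87 in the Satb1 cKO. It missed the threshold (log2 fold change -0.82, SE 0.308, adjusted p = 0.0522, edgeR), also without control replicate 1 (-0.87). Of the 100-base stretches of Ifi211 transcripts, 56.9% stand in another gene, so its count is uncertain. Ifi202b, a gene well known for strain differences in expression, had 0 reads in all 6 libraries; for the 3 libraries of a group together, the exact 95% interval of a count of 0 reaches 3.69 reads and covers counting error only.

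Within 1 Mb on each side of the p200 genes, 7 further genes were tested, and 2 of them rose, where 21.6% of all tested genes rose. Slamf8, a receptor of myeloid cells, had 0.246, 0.537 and 0.259 CPM in the controls and 2.00, 0.687 and 2.29 in the Satb1 cKO (log2 fold change 2.27, SE 0.513, adjusted p = 0.00421, edgeR). Fcer1a, the IgE receptor chain of mast cells and basophils, had a log2 fold change of 2.66 (SE 0.643, adjusted p = 0.00619, edgeR). Both were low, with mean levels in the Satb1 cKO of 1.66 CPM for Slamf8 and 1.68 CPM for Fcer1a, and without control replicate 1 their values were 2.03 and 2.18. Pigm, Gm37145, Igsf9, Tagln2 and Dusp23 were not called.

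**Figure D3:**
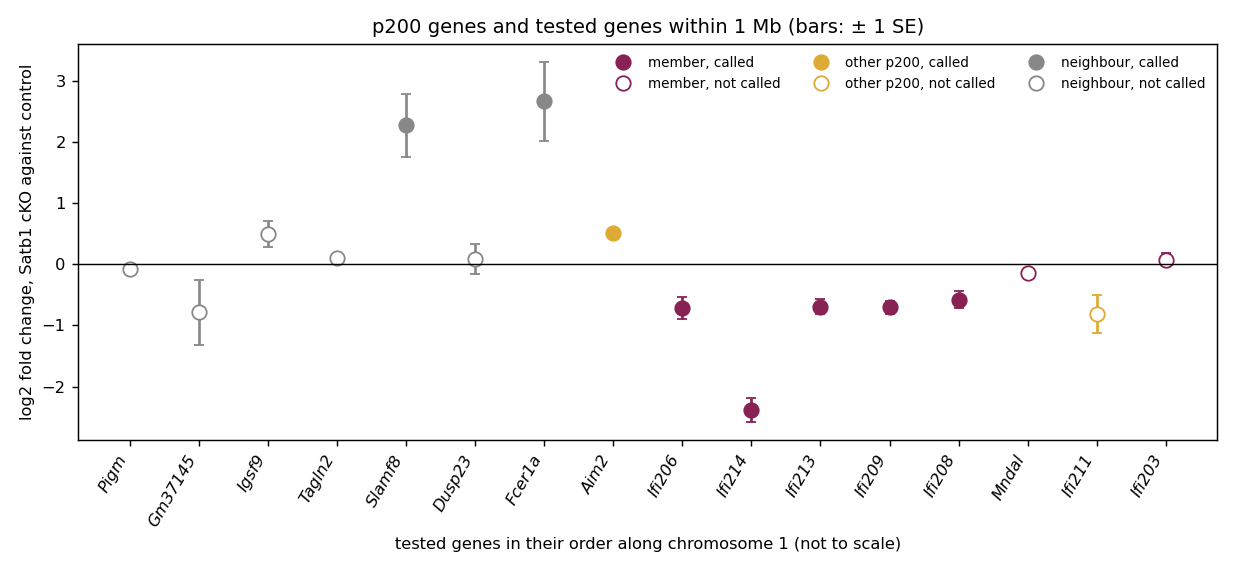
Log2 fold change of Satb1 cKO against control (vertical axis, ± 1 SE) for the tested p200 genes and the tested genes within 1 Mb, in their order along chromosome 1. Ifi206, Ifi214, Ifi213, Ifi209 and Ifi208 lie below 0, Aim2 lies above it at 0.51, and Ifi203 and Mndal lie near 0.

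Genes of the interferon response were counted from lists. These counts stand beside 21.6% of all tested genes called higher and 20.7% called lower, or 42.3% in either direction. Of 35 tested type I interferon-stimulated genes, 10 fell and 5 rose, with a median log2 fold change of -0.32. Among those of smallest p, Phf11b (-1.84), Ifit2 (-1.09), which restrains viral translation, and Ifi27l2a (-1.06) fell, and Bst2 (0.68), which tethers viruses at the membrane, rose. When control replicate 1 was left out, 20 fell and 5 rose, without control replicate 2 or 3 only 6 fell, and without Satb1 cKO replicate 3 also 6. The summed level of this list was 628, 1010 and 974 CPM in the controls and 699, 703 and 655 in the Satb1 cKO, so the control range spanned the Satb1 cKO values.

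Of 21 tested interferon gamma-inducible genes, 6 rose and none fell, with a median of 0.23. At an unadjusted p under 0.05 the number lower was 0 with edgeR, and DESeq2 and limma-voom called 0 lower. The chemokine genes Cxcl10 (3.94) and Cxcl9 (3.44), the transcription factor gene Irf8 (2.89) and the GTPase gene Gbp3 (0.83) had the smallest p. Their summed level was 1640, 3420 and 3420 CPM in the controls and 3890, 3760 and 3800 in the Satb1 cKO. Without control replicate 1, 5 rose and 9 fell, and with no filter on low counts 12 rose and 5 fell. With DESeq2, 3 rose.

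Of 18 tested genes for interferons, their receptors and their signalling, 5 rose and 3 fell, where 42.3% of all tested genes were called in either direction. Ifng, the gene of interferon gamma, rose from 0.295, 0.739 and 1.88 CPM to 10.8, 6.47 and 14.0 CPM (log2 fold change 3.49, SE 0.436, adjusted p = 8.1e-05, edgeR). Its receptor chain gene Ifngr1 (1.48) and the feedback inhibitor gene Socs1 (1.15) rose, and the kinase gene Jak1 fell (-0.26). In the fit without control replicate 1, 8 of this list fell. Of 18 tested genes of DNA sensing and the inflammasome, 6 rose and 7 fell. The caspase genes Casp1 (1.71) and Casp4 (1.29) and the nuclease gene Trex1 (0.57) rose, and the kinase gene Ikbke fell (-0.82). The count of those that fell was 4 with DESeq2 and 2 to 4 without any 1 of control replicates 2 and 3 or the Satb1 cKO replicates.

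**Figure D4:**
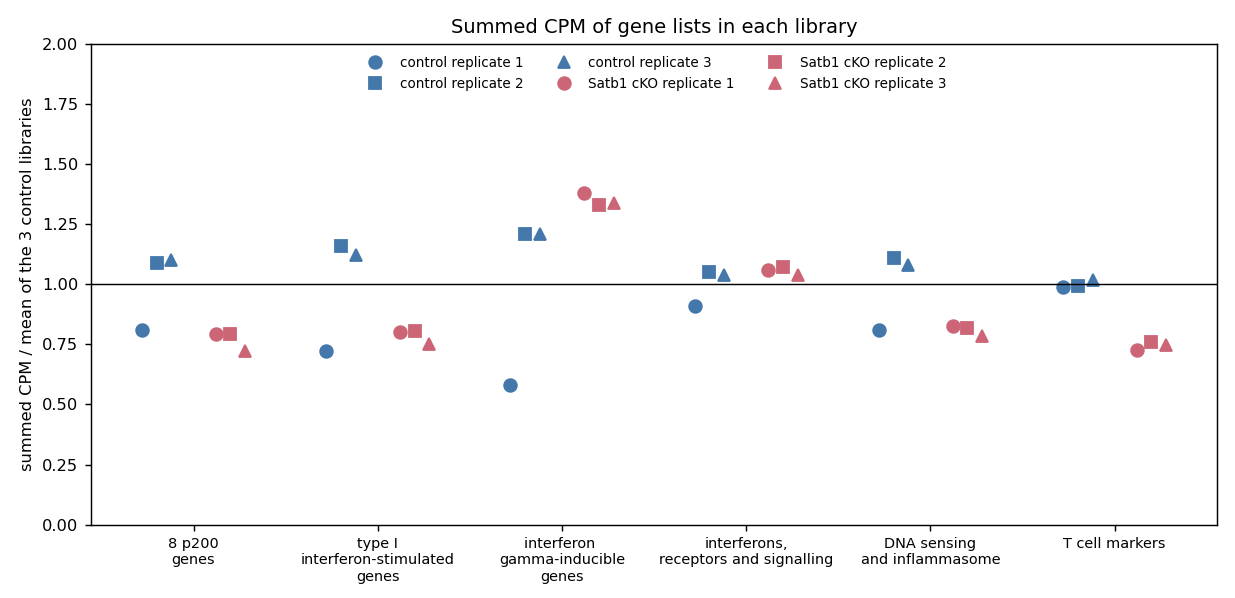
Summed CPM of the 8 p200 genes and of 5 gene lists in each library, divided by the mean of the 3 control libraries (vertical axis from 0). Control replicate 1 is low for the p200 genes (0.81), the type I list (0.721) and the interferon gamma list (0.58), and close to the other controls for T cell markers (0.99).

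Markers of other cells moved with the groups. Their counts stand beside 21.6% of all tested genes called higher and 20.7% called lower. Summed levels here include the genes of a list that had too few reads to test. Of 16 tested myeloid markers, 15 rose, and the list's summed level was 33.0 to 42.0 CPM in the controls and 106 to 244 in the Satb1 cKO. Ly6c2, Lyz2, S100a9 and Mpeg1 had the smallest p. All 7 tested red cell markers rose, from a summed 25.4 to 32.0 CPM to 310 to 1860 CPM, and Hba-a1, Hbb-bs, Hba-a2 and Alas2 had the smallest p. With limma-voom 4 rose, and 3 rose when receptor, mitochondrial and globin genes were left out of the table, which removes the globins from the list. Of 5 tested dendritic cell markers 4 rose (Zbtb46, Bst2, Tcf4 and Batf3), and the list's summed level was 57.0 to 64.7 and then 104 to 112 CPM. Most of this sum was Bst2, with a mean of 52.0 CPM in the controls and 83.3 in the Satb1 cKO. Bst2 is also counted in the type I interferon list, so its rise is not specific to dendritic cells. Both tested NK cell markers rose (Eomes and Klrc1; 5.17 to 7.65 and then 12.6 to 17.8 CPM), and with no filter on low counts 4 rose. Of 12 T cell markers, 9 fell and 1 rose, and Cd4 (-1.75), Cd28 (-0.84), Cd247 (-0.52) and Trbc2 (-0.42) had the smallest p. Without control replicate 1, 11 T cell markers fell, and 16 myeloid, 9 red cell, 3 dendritic cell and 3 NK cell markers rose. No marker of these 5 lists was at 0 in every library of a group. The summed level of the 8 p200 genes in the Satb1 cKO was 0.723 to 0.795 times the control mean, beside 0.727 to 0.758 times for the T cell markers. The median log2 fold changes were further apart, at -0.70 over the 7 tested p200 genes and -0.24 over the 12 T cell markers. The part of these cells in the p200 results was not tested.

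For each tested p200 gene, the gene of at least 5 CPM with the most similar pattern was found by the root mean square difference of centred log2 CPM over the 6 libraries, among 9561 genes. Ifi209 was the nearest to Ifi206 (0.137). Ifi213 lay nearest to the noncoding RNA gene BC043934 (0.0438), with Ifi209 at 0.0519 from it. The nearest genes to the others were Slfn8 for Ifi209 (0.0454), Zc3h6 for Ifi208 (0.0432), Igfbp4 for Ifi214 (0.139), Pex7 for Mndal (0.0438) and Capn10 for Ifi203 (0.0371). These genes were picked for their pattern, so their own changes are no further result.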

How the data were processed

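RNA sequencing of 6 libraries, 3 per group, was used. The authors deposited raw read counts per Ensembl gene and library; per the submitters' processing notes the tools were STAR 2.7.3a and HTSeq 0.12.4 with the mm10 build. Neither an annotation release nor whether counting used strand is named there. The 5 HTSeq summary lines were left out of library sizes and tests: of all reads in a table, 7.32% to 9.50% had no feature and 5.40% to 5.57% were ambiguous. Gene names and positions came from GENCODE M21, which placed 55141 of 55401 genes, and promoter windows from RefSeq (GRCm38.p6).

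Counts were tested with edgeR 4.0.16 (R 4.3.3, TMM, filterByExpr, quasi-likelihood F-test, no covariate) on all genes, at a Benjamini-Hochberg adjusted p under 0.05. CPM use the reads on the genes tested, scaled by the TMM factors, and RPKM also use merged exon length. The biological coefficient of variation was 6.27%. Alternatives used DESeq2 1.42.0 and limma-voom (limma 3.58.1), other scalings and filters, a replicate block and single left-out libraries. Sequences were aligned with Biopython 1.88.

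The p200 genes and lists (type I interferon-stimulated, interferon gamma-inducible, interferon signalling, DNA sensing, protein partners of p202 and p204, and markers of T cells, myeloid cells, dendritic cells, NK cells and red cells) were chosen with earlier results of these data known. The result of 1 further marker list is not reported here. Named genes were the 8, other p200 genes, tested genes within 1 Mb, Satb1, the 4 called genes of smallest p per list and the most similar gene for each of the 7 tested.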

Additional observations from a re-analysis of the deposited data

How the results depend on the processing

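The 14 alternatives were 2 other scalings, 2 other filters, DESeq2, limma-voom, removal of antigen receptor, mitochondrial and globin genes, a replicate block and 6 left-out libraries. Ifi206, Ifi208, Ifi209, Ifi213 and Ifi214 were lower and past the threshold in all 14; Ifi214 ranged from -2.52 to -2.21. With no filter on low counts, 1 of the 8 genes was higher (Ifi204) and 6 were lower, with Mndal at -0.16 (adjusted p = 0.0318, edgeR). As stated for Ifi204, adjusted p-values of that fit are not comparable with those of the others. Leaving out 1 library moved Ifi203 between -0.078 and 0.167, Dusp23 between -0.106 and 0.191 and Capn10 between -0.0533 and 0.139, with signs turned without control replicate 1 for Ifi203 and Capn10 and without Satb1 cKO replicate 1 for Dusp23. The cause was not tested. Same-numbered libraries did not deviate together (correlations 0.0215, -0.0125 and 0.0279), and with the replicate block 5 of the 8 genes were lower and 0 higher, with 2861 genes higher and 2702 lower over all genes. Ifi211 was past the threshold with no filter, with limma-voom, without the receptor, mitochondrial and globin genes and without Satb1 cKO replicate 1. The 3 libraries per group and the reads shared between near copies limit the precision, and Ifi204, Ifi205, Ifi207 and Ifi203-ps had too few reads to test.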

Other observations

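Over all tested genes, 21.6% were called higher and 20.7% lower. Of 16 genes for protein partners of p202 and p204, 7 were higher and 6 lower in the Satb1 cKO (edgeR, adjusted p under 0.05). The median of their log2 fold changes was -0.011. The AP-1 gene Jun (1.60), the helix-loop-helix inhibitor gene Id2 (1.42), the Runt factor gene Runx2 (2.15) and the NF-kB subunit gene Nfkb1 (0.62) had the smallest p, and all 4 were higher.

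Ifi207 had 5 reads over the 3 control libraries and 12 over the 3 Satb1 cKO libraries, a ratio of 2.28 allowing for depth with an exact 95% interval of 0.748 to 8.27. Ifi205 had 8 and 12 reads, a ratio of 1.43 with an interval of 0.536 to 4.02. Both intervals include no change. Ifi203-ps, annotated as a pseudogene, had 1 read in 1 Satb1 cKO library and 0 elsewhere.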
